A study of Mus musculus with 26 samples.

Results

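This account follows 31 genes of protein synthesis and amino acid supply in T cells that were sorted out of mouse Peyer's patches, lymphoid organs of the gut wall. They were taken by name from the 25814 genes listed in each library's table. The set holds 20 genes for the cytosolic aminoacyl-tRNA synthetases, 6 genes for the transcription factor ATF4 and its regulatory targets, and 5 genes for enzymes that make amino acids and one-carbon units.

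RNA was sequenced from 26 libraries in 4 groups, all from C57Bl/6 mice. For the diet comparison there were 6 libraries of CD4+ T cells from animals fed the conventional diet and 6 from animals fed the elemental diet, in which free amino acids stand in for protein. A further 7 libraries of CD44+ and 7 of CD44- T cells were both from conventional diet animals. CD44 is an adhesion receptor carried at high levels by T cells that have met antigen. CD4+ libraries were built from 22 ng of total RNA after poly(A) selection, and CD44 libraries from 1 ng with a kit for low input, so levels were compared only inside each pair of groups. The sources used here do not give sex, age, the length of the diet, any gate on CD4 in the CD44 sorts or the origin of each replicate. The p-values measure the spread between these samples, which may be technical.

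As background, an aminoacyl-tRNA synthetase joins an amino acid to the tRNA that carries it, most of these enzymes serve a single amino acid, and the ribosome uses the charged tRNAs. When an amino acid runs short, uncharged tRNA activates the kinase GCN2, which phosphorylates the initiation factor eIF2. General translation then drops, while translation of Atf4 messenger RNA increases, and ATF4 protein drives transcription of synthetases, amino acid transporters and enzymes such as asparagine synthetase. Atf4 messenger RNA, the quantity counted here, is therefore only 1 layer of this control. T cells also raise many of these genes when they are activated and begin to divide.

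The DNA element to which ATF4 binds with C/EBP partners is usually called the CARE, with a core of TGATGNAA. This core alone was searched for, on both strands, in the RefSeq promoter windows of build GRCm38.p6, from 250 bases before to 50 bases after each gene's start. A window was found for 22 of the 31 genes. Cars, Hars, Lars, Mars, Nars, Rars, Vars, Wars and Eif4ebp1 had none. The core was present in 8 of the 22 genes (36.4%), against 1219 of 27025 gene symbols (4.51%) and 1304 of 32851 windows (3.97%). It occurred in 5 of 12 synthetases, 2 of 5 genes of the ATF4 group and 1 of 5 synthesis enzymes. A match is a run of letters and not a shown binding site. The genes were chosen by name as synthetases and ATF4 targets, so the share with the core is not independent of that choice. 1 match for each of the 8 genes is printed below. Each is 30 bases long, 5′ to 3′ on the strand of its gene, with the core or its reverse complement in capitals.
Aars chr8:111033840-111033869: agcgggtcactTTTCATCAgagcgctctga
Gars chr6:55037960-55037989: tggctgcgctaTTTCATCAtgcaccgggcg
Iars chr13:49682126-49682155: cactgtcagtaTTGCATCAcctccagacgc
Tars chr15:11399655-11399684: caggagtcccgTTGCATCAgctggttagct
Yars chr4:129189895-129189924: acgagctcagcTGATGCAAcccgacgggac
Trib3 chr2:152344028-152344057: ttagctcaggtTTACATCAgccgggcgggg
Chac1 chr2:119351038-119351067: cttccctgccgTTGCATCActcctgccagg
Asns chr6:7693214-7693243: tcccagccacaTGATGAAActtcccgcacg
The core reads forward along the gene in Yars and Asns and as its reverse complement in the other 6. The spacing to the RefSeq start varied. It was 193 bases upstream in Chac1, 30 in Gars, 23 in Asns and 15 in Tars, while the printed matches of Aars, Iars, Yars and Trib3 began just after the start. The 300-base window of Atf4 itself held no TGATGNAA.

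Levels below are exon reads in CPM, that is counts scaled to a common library size, and differences are log2 fold changes ± SE from edgeR's quasi-likelihood test with Benjamini-Hochberg adjustment over all genes tested. A gene is said to have risen or fallen only where the adjusted p was under 0.05. Depth was 16401589 to 25415205 exon reads for CD4+ cells and 7180390 to 13378353 for the CD44 sorts. Among T cell genes, Cd3e was present in every group (205 ± 8.90 and 177 ± 21.2 CPM on the conventional and elemental diets, 1964 ± 589 in CD44+ and 1212 ± 495 in CD44- libraries). The receptor constant genes Trac, Trbc1 and Trbc2 have no exon reads in these tables. Cd4 averaged 353 ± 78.6 and 239 ± 45.9 CPM on the conventional and elemental diets. Between the CD44 sorts, Cd44 itself overlapped, at 89.2 to 362 CPM in CD44+ and 47.5 to 139 CPM in CD44- libraries (0.95 ± 0.40, adjusted p = 0.303).

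The first comparison asked how these genes stood in CD4+ T cells when the protein of the food was replaced by free amino acids. Of 30 genes with enough reads to be tested, 1 rose and 1 fell on the elemental diet (6.67%), against 17.4% of the 11938 genes tested overall (9.68% higher and 7.75% lower). Atf4 rose, and Gars, the glycyl-tRNA synthetase, fell by a small amount. The other 28 genes did not pass the test, among them the ATF4 targets Ddit3, Trib3 and Asns. In sorted bulk samples such as these, fewer cells of a type and less RNA per cell cannot be told apart.

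Atf4 (ENSMUSG00000042406, chromosome 15, 80255184 to 80257541, GRCm38) encodes the transcription factor at the centre of the response. Its lowest, median and highest levels were 44.9, 50.5 and 54.6 CPM on the conventional diet and 59.6, 73.7 and 80.5 CPM on the elemental diet. All 6 elemental libraries lay above all 6 conventional ones, a separation seen in 7.16% of all genes tested (4.82% upward and 2.35% downward). The mean rose from 50.4 ± 3.47 to 71.4 ± 8.60 CPM (0.50 ± 0.09, adjusted p = 0.00217). No other gene of the 31 had diet groups that did not overlap. Leaving out any 1 library gave log2 fold changes from 0.46 to 0.55, each with an adjusted p under the threshold. The call was lost when all 4 groups shared 1 estimate of the spread (0.51, adjusted p = 1.0), a fit that called 2 genes in all.

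Among the regulatory targets, Ddit3 encodes CHOP, a transcription factor of prolonged stress. It stood at 7.30, 10.1 and 15.5 CPM (lowest, median, highest) on the conventional diet and 10.4, 13.4 and 23.5 CPM on the elemental diet. The groups overlapped, although 6 of 6 elemental libraries were above the conventional mean (0.51 ± 0.22, adjusted p = 0.116). Conventional replicate 6 was the highest of its group, and without it Ddit3 passed the test (0.66, adjusted p = 0.0235). The 3′ ends of Ddit3 and Mars, on opposite strands, overlap by 68 bases. Whether reads were counted by strand is not given, so reads there cannot be assigned to either gene. Ddit3 also overlaps AC144852.1 on the same strand by 2925 bases, and 92.4% of the exon reads of Ddit3 were unique.

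Trib3, a pseudokinase that restrains ATF4 and AKT, stood at 2.66, 3.66 and 4.15 CPM on the conventional and 3.81, 4.75 and 5.52 CPM on the elemental diet. All 6 elemental libraries again exceeded the conventional mean, with overlap of the groups (0.41 ± 0.20, adjusted p = 0.171). Sesn2, a leucine sensor that holds back mTORC1, stood at 3.34, 5.42 and 7.10 CPM and at 4.19, 4.57 and 6.93 CPM in the same order (-0.06 ± 0.22, adjusted p = 0.866). Eif4ebp1, the repressor of cap-dependent translation 4E-BP1, stood at 10.2, 12.6 and 16.9 CPM and at 10.4, 14.9 and 16.4 CPM (0.16 ± 0.15, adjusted p = 0.489). The elemental values of both lay inside the conventional range. Chac1, which degrades glutathione, was too scarce to be tested. It was at 0 in 2 of 6 conventional and 3 of 6 elemental libraries and reached at most 14 reads. The 5 tested genes of this group, Atf4 among them, had a median log2 fold change of 0.41, and 4 of 5 estimates were above 0. Only Atf4 of these was called. For all genes tested the median was -0.01, and 5816 of 11938 estimates were above 0.

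**Figure D1:**
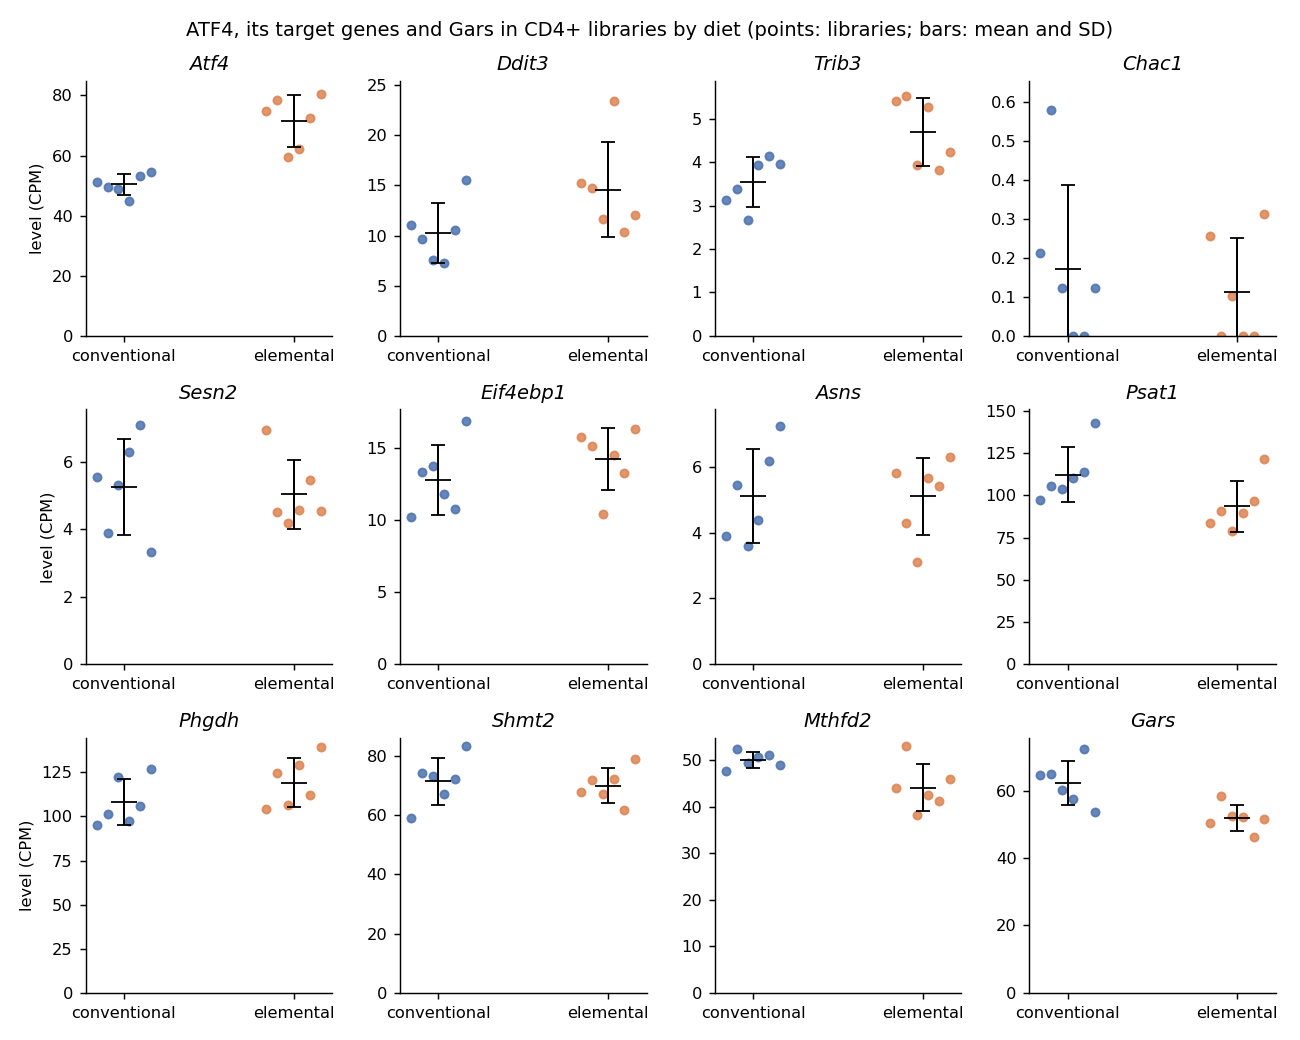
Level in CPM (vertical axes, from 0) of the 11 genes that are not synthetases and of Gars, by diet. Points are libraries (6 a diet) and bars the mean and SD. Atf4 is the panel in which the diets do not overlap, at 44.9 to 54.6 and 59.6 to 80.5 CPM.

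The enzymes of amino acid and one-carbon synthesis gave no call. Asns makes asparagine from aspartate. It stood at 3.58, 4.91 and 7.24 CPM on the conventional and 3.10, 5.53 and 6.29 CPM on the elemental diet, ranges that nearly coincide (-0.01 ± 0.23, adjusted p = 0.987). Phgdh opens the serine pathway and stood at 95.1, 104 and 127 CPM and at 104, 118 and 139 CPM (0.14 ± 0.10, adjusted p = 0.324). Only 38.6% of the exon reads of Phgdh matched a single place in the genome, so its counts are uncertain.

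Psat1, the next enzyme of that pathway, stood at 97.2, 108 and 143 CPM on the conventional diet and 78.8, 90.1 and 121 CPM on the elemental diet. In 5 of 6 elemental libraries it was below the conventional mean (-0.26 ± 0.11, adjusted p = 0.113). Shmt2, which moves a carbon from serine to folate in mitochondria, stood at 59.1, 72.6 and 83.1 CPM and at 61.7, 69.8 and 79.0 CPM (-0.03 ± 0.09, adjusted p = 0.831). These ranges lay on top of each other. Mthfd2, the mitochondrial folate enzyme that follows it, stood at 47.7, 50.02 and 52.3 CPM and at 38.2, 43.2 and 52.9 CPM (-0.18 ± 0.09, adjusted p = 0.148). Of 6 elemental libraries, 5 were below the conventional mean of Mthfd2. The median log2 fold change of the 5 enzymes was -0.03.

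The estimates of the synthetases leaned to the lower side. As these genes share their libraries, the counts below are descriptions. Of 20, 1 fell (5.0%, beside 7.75% of all genes tested) and 0 rose. Estimates were below 0 in 18 (90%), against 51.3% of all genes tested, and in all 20 with total exon reads as library size. Their median log2 fold change was -0.20, with a range from -0.75 to 0.07, beside -0.01 for all genes. At an unadjusted p under 0.05, 6 were lower and 0 higher, beside 1994 lower and 2040 higher among the 11938 genes tested. Taking library size from total exon reads also moved the median of all genes, to -0.13, and DESeq2's size factors gave 18 of 20 below 0. The count was 15 of 20 without elemental replicate 1, 16 without conventional replicate 1 or 5 or elemental replicate 6, and 17 to 19 without each of the other libraries. The summed level of the 20 synthetases was 1137 to 1350 CPM on the conventional diet and 1006 to 1261 CPM on the elemental diet, so the sums overlapped.

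Gars (ENSMUSG00000029777, chromosome 6, 55038007 to 55079500) charges the glycine tRNA in both the cytosol and mitochondria. It stood at 53.6, 62.3 and 72.4 CPM on the conventional diet and 46.1, 52.0 and 58.3 CPM on the elemental diet. The groups overlapped, with 6 of 6 elemental libraries below the conventional mean. The mean fell from 62.2 ± 6.59 to 51.8 ± 3.93 CPM (-0.26 ± 0.09, adjusted p = 0.0497). This call sat at the edge of the threshold. Leaving out conventional replicate 6 or elemental replicate 2 kept it (adjusted p = 0.0149 and 0.0345), and leaving out any of the other 10 libraries ended it, with adjusted p up to 0.115. The Gars window holds 1 of the matches printed above, and so do those of Aars (-0.36 ± 0.19), Iars (-0.67 ± 0.25), Tars (-0.23 ± 0.16) and Yars (-0.21 ± 0.13), none of which passed the test.

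The lowest estimates belonged to Eprs, Lars and Iars, which did not pass. Eprs, which charges both glutamate and proline tRNAs, averaged 14.1 ± 4.8 and 8.40 ± 2.61 CPM on the conventional and elemental diets (-0.75 ± 0.26, adjusted p = 0.0605). Lars, for leucine, averaged 18.7 ± 5.89 and 11.4 ± 3.78 CPM (-0.71 ± 0.26, adjusted p = 0.0690). Iars, for isoleucine, averaged 18.9 ± 7.01 and 11.9 ± 3.13 CPM (-0.67 ± 0.25, adjusted p = 0.0754). All 6 elemental libraries were below the conventional mean for each of the 3 genes.

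Which synthetases passed depended on single libraries. Eprs passed without elemental replicate 1 (-0.92, adjusted p = 0.0308) and Iars without elemental replicate 2 (-0.78, adjusted p = 0.0498). Of the 12 libraries left out in turn, conventional replicate 6 added the most calls. It held the lowest level of its group for Eprs (5.41 CPM), Lars (7.84), Iars (8.33) and Aars (24.4). Without that library 9 of the 31 genes were called, Atf4 and Ddit3 higher and Aars, Eprs, Gars, Hars, Iars, Lars and Rars lower. The share of all genes called also grew, to 31.9%. The same library had the highest summed level of 14 enterocyte and epithelial marker genes in its group, 1308 CPM against 92.9 to 673 CPM in the other 5 conventional libraries and 1128 to 2363 CPM in the elemental ones. Cd4 (224 CPM), Cd44 (113 CPM) and the summed naive T cell genes (1367 CPM) were at their lowest of the group there. The part of these traits in its synthetase levels was not tested.

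**Figure D2:**
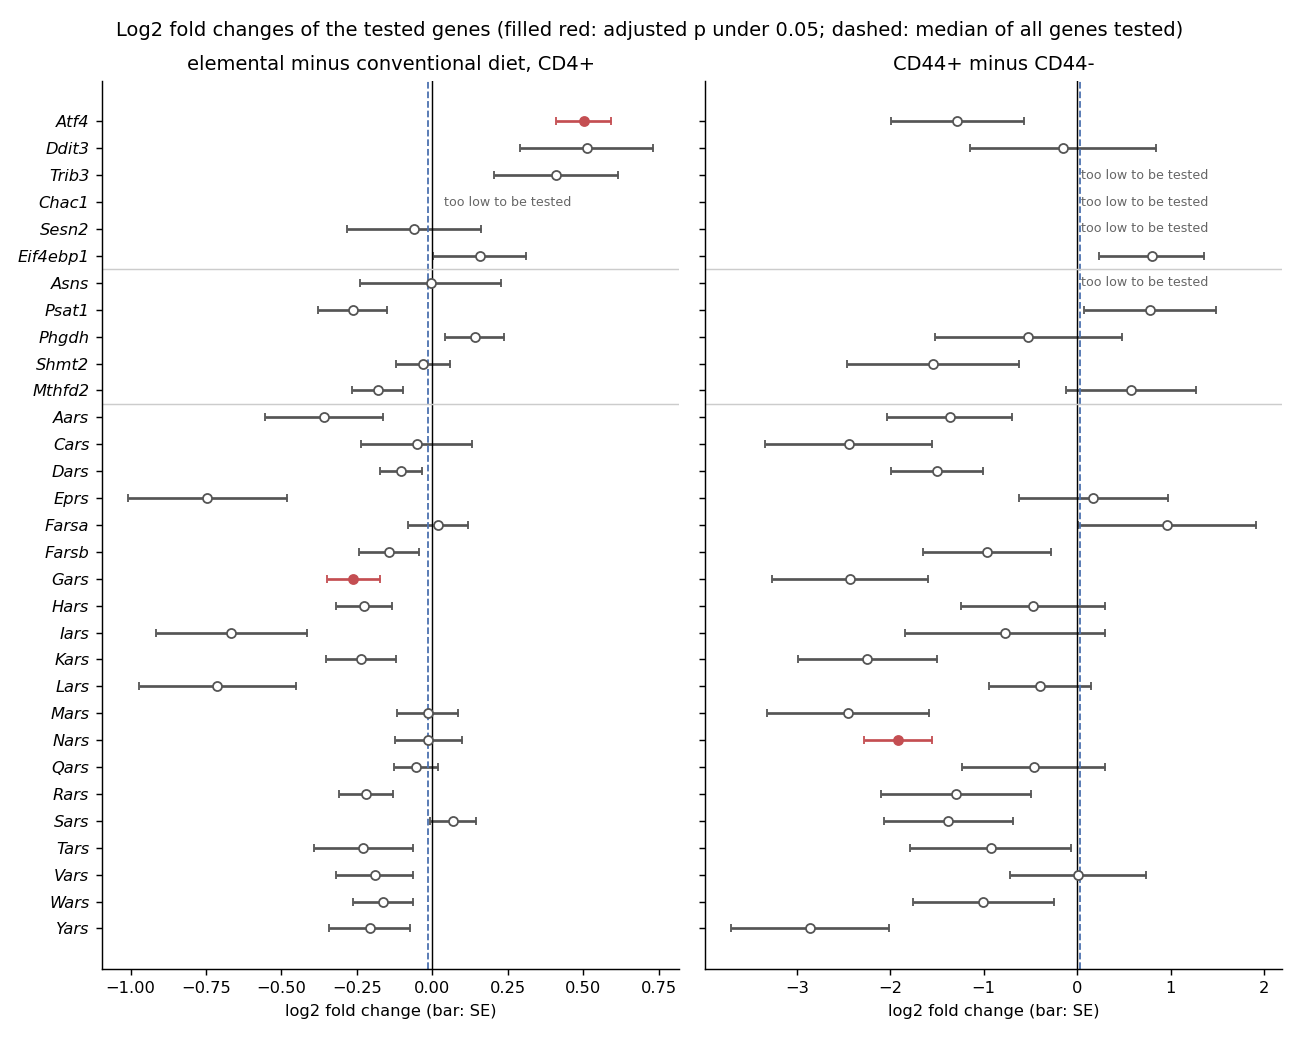
Log2 fold change (horizontal axes, bars ± SE) of the genes tested, 30 for elemental minus conventional diet on the left and 27 for CD44+ minus CD44- on the right, with the untested genes marked as too low. Filled red points passed the test: Atf4 (0.50) and Gars (-0.26) on the left, Nars (-1.92) on the right.

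Markers of other cell types, of cell division and of T cell states moved with diet in the same libraries. Epithelial markers rose in 6 of 14 tested genes (median log2 fold change 1.61), and myeloid and dendritic markers rose in 11 of 11, with sums of 444 to 605 CPM on the conventional and 901 to 1744 CPM on the elemental diet. Cell cycle genes fell in 17 of 19, with sums of 946 to 1166 CPM and 619 to 801 CPM. Germinal centre B cell markers fell in 7 of 7 (sums 123 to 218 and 56.0 to 70.1 CPM), B cell markers in 4 of 12 (363 to 694 and 210 to 477 CPM) and plasma cell markers in 3 of 8 (992 to 2068 and 471 to 946 CPM). Follicular helper genes fell in 7 of 10, with sums of 1003 to 1287 and 567 to 844 CPM. Bcl6 was counted both in this list and in that of germinal centre B cells. Among naive T cell genes 3 of 7 rose and 1 fell, with sums of 1367 to 1851 and 1529 to 2189 CPM. Within the alpha-beta T cell list, 4 of 12 tested genes fell and 0 rose (median -0.18). No epithelial, myeloid or plasma cell marker was at 0 throughout either diet group. As with Atf4, the diet ranges of the myeloid, cell cycle, germinal centre B cell, plasma cell and follicular helper sums did not overlap. Those of the epithelial, B cell and naive sums did. Inside the diet groups the order of libraries by Atf4 was set beside the epithelial sum alone, and these orders matched in part. Conventional replicate 6 was the highest of its group in both (54.6 and 1308 CPM) and elemental replicate 3 the lowest of its group in both (59.6 and 1128 CPM). Elemental replicate 4 was next to lowest for Atf4 (62.3 CPM) and next to highest in the sum (2216 CPM), and replicate 2 was the reverse (78.6 and 1226 CPM). The part of these cell types and states and of cell division in the levels of Atf4 and the synthetases was not tested.

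Exon length also ran along with the diet difference. Across the 11938 genes tested, Spearman's rho between deposited exon length and log2 fold change was -0.363, and across the 20 synthetases it was -0.394. Genes share their libraries, so these values are descriptions. Of the 8 synthetases longer than 3278 bases, the median over all genes tested, the median log2 fold change was -0.29, beside -0.17 for all genes of that length. The 12 synthetases at or below it had a median of -0.15, with 11 of 12 estimates below 0, beside 0.10 and 36.2% for all genes of that length. The long synthetases thus sat on the side of the long genes, while most short synthetases lay below the typical short gene. The part of length in these differences was not tested.

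**Figure D3:**
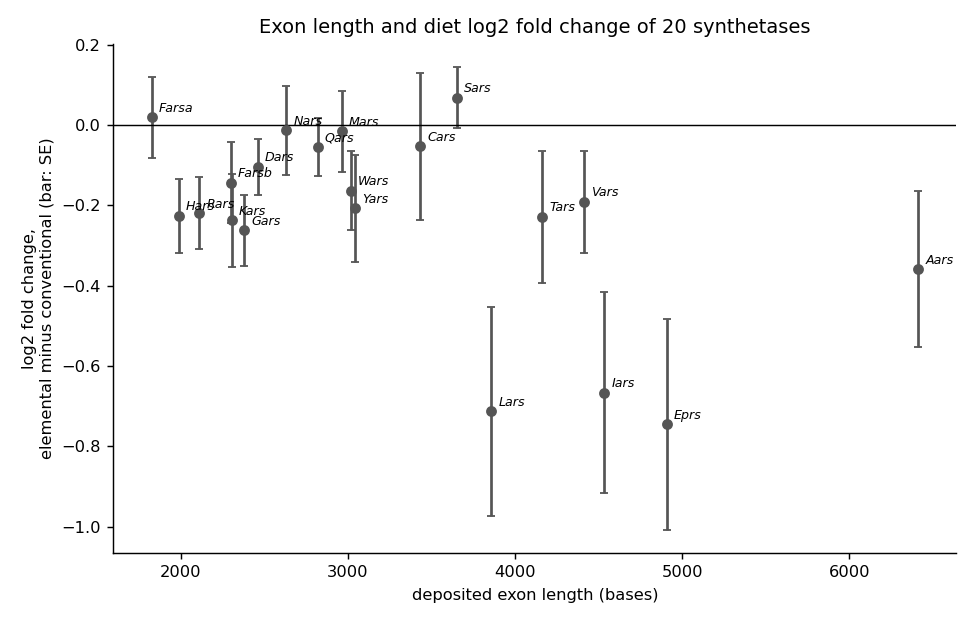
Deposited exon length in bases (horizontal axis) and log2 fold change, elemental minus conventional, with its SE (vertical axis) for the 20 synthetases. Lars, Iars and Eprs lie lowest, near -0.7, and Farsa and Sars are the 2 above 0, both of which turned below 0 with total exon reads as library size.

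Per exon length, the synthetases covered a wide span of levels in CD4+ cells. On the conventional diet Dars, for aspartate, and Qars, for glutamine, led with 61.9 ± 3.22 and 60.4 ± 4.13 CPM per kilobase, and their values could not be separated. Sars (41.3 ± 2.90) and Nars (38.5 ± 4.03) followed, for serine and asparagine. Without a break from Nars, the levels ran on from Kars at 30.4 ± 4.16 to Hars at 20.1 ± 1.64 CPM per kilobase. From Sars to Hars every neighbour overlapped the next. Mars (16.8 ± 1.48) and Wars (13.2 ± 1.19) came next, each apart from its neighbours by more than the SD ranges. The lowest 7 ran from Tars at 7.79 ± 1.65 through Yars, Aars, Lars, Iars and Eprs to Cars at 2.31 ± 0.50. In 15 of 19 neighbouring pairs the mean ± SD ranges overlapped, on both diets. On the elemental diet Qars (58.2 ± 3.70) and Dars (57.6 ± 3.59) were again the top pair, and Eprs (1.71 ± 0.53) was last.

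**Figure D4:**
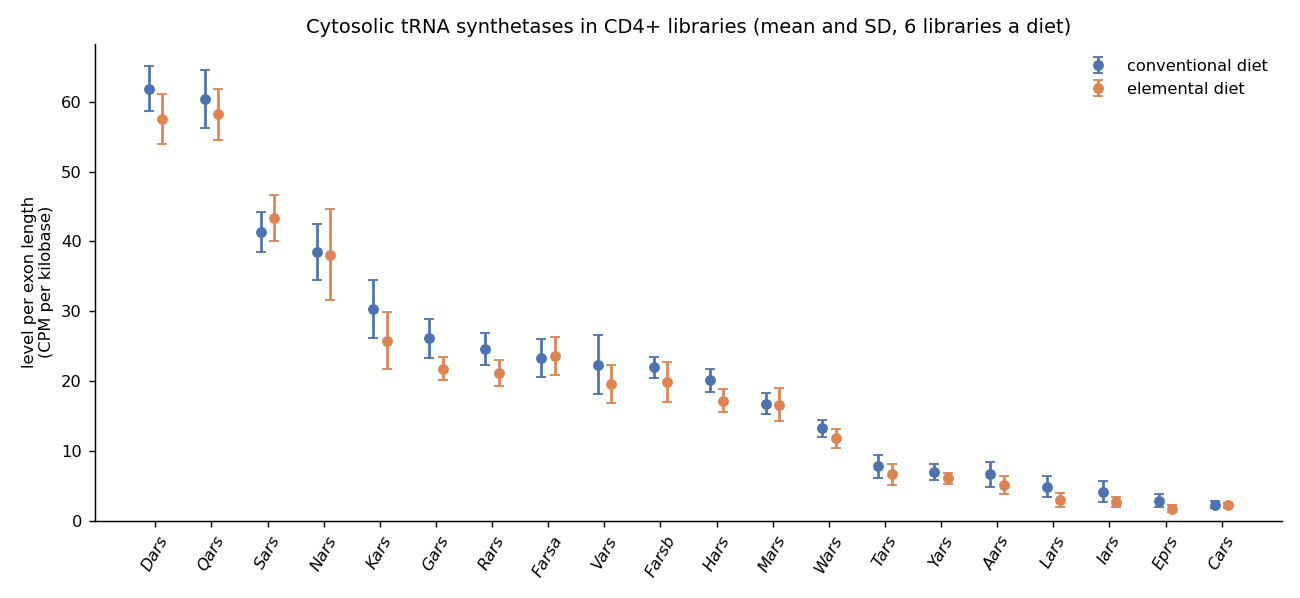
Level per exon length in CPM per kilobase (vertical axis) of 20 synthetases in CD4+ libraries, ordered by the conventional mean. Points are means and bars SD over 6 libraries a diet. Dars and Qars stand near 60, and the 7 genes from Tars to Cars lie below 10 on both diets.

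Phenylalanyl-tRNA synthetase is built from equal numbers of the chains encoded by Farsa and Farsb, and these 2 genes overlapped in level per exon length on the conventional diet, at 23.3 ± 2.69 and 22.0 ± 1.53 CPM per kilobase. On the elemental diet they stood at 23.6 ± 2.77 and 19.9 ± 2.85 CPM per kilobase. Farsb overlaps Sgpp2 on the opposite strand by 2315 bases, and 89.9% of its exon reads were unique. Aars shares a 1326-base stretch with Exosc6 on the same strand and had 79.7% unique reads, so its level is uncertain as well. Variation between libraries was modest in the CD4+ groups. The SD was 11.1% of the mean for the median synthetase on the conventional diet and 14.2% on the elemental diet, beside 21.5% and 20.1% for the median gene.

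Other genes of the same pathways mostly did not pass the diet test. Of 17 mitochondrial synthetases, 0 rose and 1 fell, Vars2 for valine (16.4 ± 1.16 to 12.8 ± 1.43 CPM, -0.36 ± 0.12, adjusted p = 0.0466). None of 5 genes of the synthetase complex and tRNA export, of 9 eIF2 kinases, phosphatases and partners, or of 6 other transcription factors of the response was called. Estimates were below 0 in 7 of the 9 eIF2 genes (median -0.31), so a lean to the lower side was not particular to the cytosolic synthetases. They were below 0 in 7 of 17 mitochondrial synthetases (median 0.08), 2 of 5 complex and export genes (0.04) and 3 of 6 transcription factors (0.02). The kinase GCN2 itself, encoded by Eif2ak4, was scarce at 1.92 ± 0.80 and 1.11 ± 0.79 CPM (-0.78 ± 0.47, adjusted p = 0.247).

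Of 9 other amino acid and one-carbon enzymes, 1 rose and 1 fell. Cth, which makes cysteine from cystathionine, rose from 3.03 ± 2.47 to 12.6 ± 5.50 CPM (2.07 ± 0.50, adjusted p = 0.0138). The median epithelial sum was also higher on the elemental diet, though the ranges overlapped. Cth had 0 reads in all 14 CD44 libraries, which differ in input and kit. Their epithelial sums were 87.2 to 681 CPM in CD44- and 124 to 478 CPM in CD44+ libraries. Whether Cth reads came from the T cells was not tested. Mthfd1, the cytosolic folate enzyme, fell from 22.2 ± 3.90 to 14.9 ± 2.93 CPM (-0.57 ± 0.16, adjusted p = 0.0210). Of 10 amino acid transporters, 0 rose and 1 fell, the glutamine carrier Slc38a1 (71.8 ± 11.2 to 51.2 ± 4.06 CPM, -0.49 ± 0.11, adjusted p = 0.00663).

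Of 9 genes that pass amino acid status to mTORC1, 1 rose and 2 fell. The sestrins moved in opposite directions. Sesn1 rose from 43.1 ± 3.08 to 60.4 ± 4.82 CPM (0.49 ± 0.08, adjusted p = 0.00129), and Sesn3 fell from 132 ± 30.1 to 85.8 ± 14.4 CPM (-0.62 ± 0.15, adjusted p = 0.0109). Flcn, folliculin, fell from 24.1 ± 3.74 to 16.2 ± 2.81 CPM (-0.57 ± 0.14, adjusted p = 0.0138). Sesn2, the sestrin usually counted among ATF4 targets, was the one with no call.

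The second comparison set CD44+ against CD44- T cells on the conventional diet, and so antigen-experienced against mostly naive cells by the usual reading of CD44. Of 27 genes tested, 1 fell and 0 rose (3.70%), against 0.767% of the 8343 genes tested overall (0.3% higher and 0.467% lower). The gene that fell was Nars, the asparaginyl-tRNA synthetase. Trib3, Chac1, Sesn2 and Asns had too few reads to be tested. These libraries varied far more than the CD4+ ones. The SD of the median synthetase was 75.3% of its mean in CD44+ and 97.7% in CD44- libraries. CD44- replicate 2 stood apart from its group. Introns took 9.40% of its gene reads, against 17.7% to 27.0% in the other 6, and it had the most exon reads of the 7 (13378353, next 11107352) and the highest summed level of the synthetases (2240 CPM, next 1653). Without it the same single gene was called, and 0.719% of all genes tested.

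Nars (ENSMUSG00000024587, chromosome 18, 64499665 to 64516557) had lowest, median and highest levels of 127, 269 and 420 CPM in CD44- and 36.8, 63.4 and 110 CPM in CD44+ libraries. Every CD44- library was above every CD44+ library, a separation seen in 0.755% of all genes tested (0.396% upward and 0.36% downward). The mean fell from 255 ± 101 to 67.5 ± 23.9 CPM (-1.92 ± 0.36, adjusted p = 0.0123). Leaving out any 1 library kept the call, with adjusted p from 0.0079 to 0.0362 (-1.77, adjusted p = 0.0255 without CD44- replicate 2). With the replicate number as a block in the fit the call was lost (adjusted p = 0.0852). Whether the numbers pair the CD44 libraries is not given. In the CD4+ comparison the same gene stood at 101 ± 10.6 and 100.3 ± 17.2 CPM on the conventional and elemental diets (-0.01 ± 0.11, adjusted p = 0.942).

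Most other synthetases had estimates on the same side without passing. These genes also share their libraries, so the counts below are descriptions. Of 20, 17 were below 0 (85%), against 48.9% of all genes tested, and their median log2 fold change was -1.15 beside 0.03. With total exon reads as library size 18 were below 0, and with DESeq2's size factors 17. Without CD44- replicate 2 the count was 16 and the median -0.94. At an unadjusted p under 0.05, 7 were lower and 0 higher, beside 639 lower and 475 higher among the 8343 genes tested. Yars, for tyrosine, had the lowest estimate (14.9 ± 16.5 CPM in CD44- and 2.04 ± 1.18 CPM in CD44+ libraries, -2.86 ± 0.84, adjusted p = 0.119). Mars (-2.46 ± 0.87), Cars (-2.44 ± 0.90), Gars (-2.43 ± 0.83) and Kars (-2.25 ± 0.75) followed, with adjusted p from 0.177 to 0.227. Dars averaged 374 ± 206 CPM in CD44- and 132 ± 108 CPM in CD44+ libraries (-1.50 ± 0.49, adjusted p = 0.165).

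Vars (0.01 ± 0.73), Eprs (0.17 ± 0.80) and Farsa (0.97 ± 0.95) were the synthetases with estimates above 0. With library size from total exon reads the estimate of Eprs turned to -0.06. The summed level of the 20 synthetases was 613, 1256 and 2240 CPM (lowest, median, highest) in CD44- and 355, 531 and 667 CPM in CD44+ libraries. The sums met only at the ends of their ranges. Per exon length all 19 neighbouring pairs of synthetases had overlapping mean ± SD ranges in both CD44 groups, so no order could be read there. Spearman's rho between exon length and the CD44 log2 fold change was 0.119 across the synthetases and -0.161 across all genes.

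**Figure D5:**
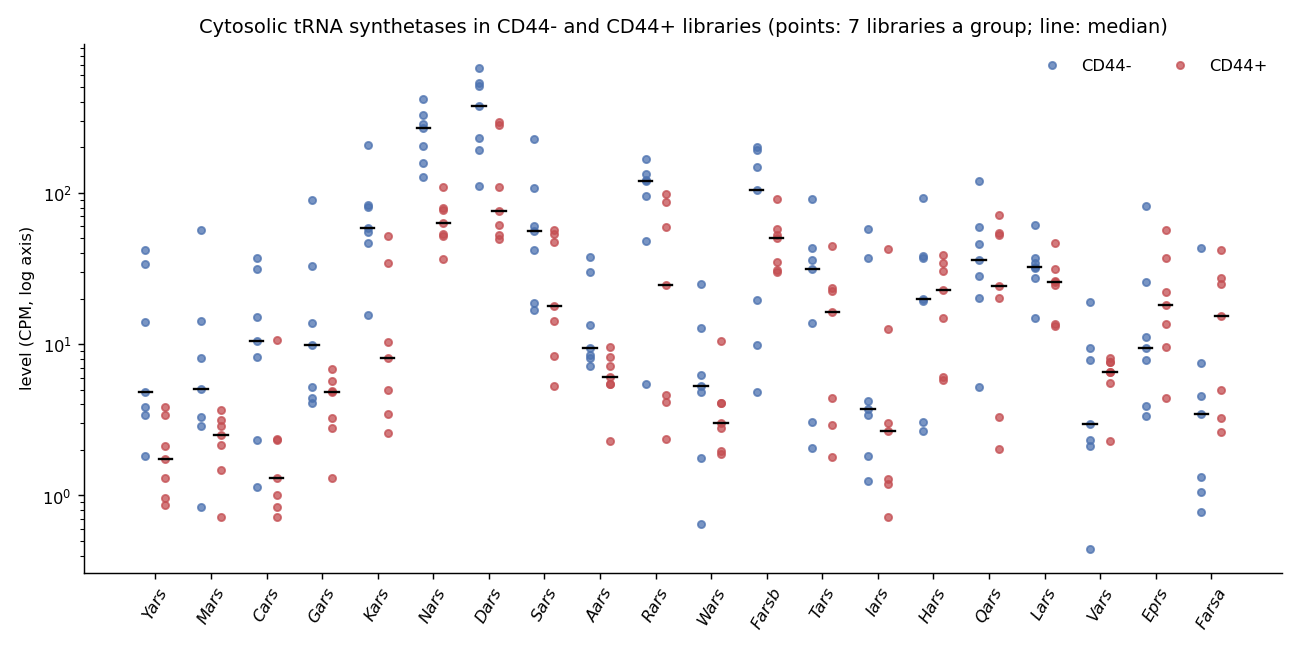
Level in CPM (vertical axis, log scale) of 20 synthetases in CD44- (blue) and CD44+ (red) libraries, 7 a group, with a line at each median. Nars is the gene without overlap, at 127 to 420 against 36.8 to 110 CPM. In most other genes single libraries of a group lie far from the rest.

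Atf4 pointed the other way from the diet comparison, without a call. It stood at 2.62, 17.8 and 72.1 CPM in CD44- and 4.18, 10.5 and 21.2 CPM in CD44+ libraries (-1.28 ± 0.71, adjusted p = 0.464). The CD44- group enclosed the whole CD44+ range. Ddit3 stood at 0.65, 21.4 and 40.1 CPM and at 0.63, 6.04 and 66.9 CPM in the same order (-0.15 ± 1.00, adjusted p = 0.967). Eif4ebp1 stood at 0.72, 1.34 and 4.71 CPM and at 1.58, 3.96 and 5.13 CPM (0.80 ± 0.56, adjusted p = 0.605). Both genes overlapped broadly.

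The untested regulatory genes had few reads in most libraries. Trib3 ranged from 0.11 to 4.51 CPM in CD44- and from 0 to 0.71 CPM in CD44+ libraries, with at most 6 reads in any CD44+ library. Sesn2 ranged from 0.06 to 2.05 CPM and from 0.29 to 4.03 CPM. Chac1 had 0 reads in all 7 CD44- libraries and at most 3 reads in a CD44+ library. No difference in these genes was tested.

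Asns exceeded a few reads in 2 CD44+ libraries. Replicate 1 held 29.96 CPM (253 reads) and replicate 4 held 11.3 CPM (94 reads), while the other 5 CD44+ libraries held at most 4 reads and the 7 CD44- libraries at most 5. Psat1 stood at 2.42, 72.7 and 185 CPM in CD44- and 16.4, 140 and 245 CPM in CD44+ libraries (0.78 ± 0.70, adjusted p = 0.705). Phgdh stood at 1.90, 25.3 and 121 CPM and at 0.43, 26.4 and 117 CPM (-0.52 ± 1.00, adjusted p = 0.876). The serine pathway genes thus ran from near 0 to over 100 CPM between libraries of the same label.

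Shmt2 stood at 2.42, 20.1 and 43.1 CPM in CD44- and 1.01, 2.66 and 23.0 CPM in CD44+ libraries (-1.55 ± 0.92, adjusted p = 0.504). Mthfd2, its neighbour in the folate pathway, stood at 4.62, 31.5 and 53.0 CPM and at 4.43, 54.8 and 98.8 CPM (0.58 ± 0.70, adjusted p = 0.792). The estimates of these 2 enzymes had opposite signs, and the ranges of both overlapped. Among the other pathway lists none of the tested genes was called, in either direction: 0 of 9 mitochondrial synthetases, 0 of 4 complex and export genes, 0 of 7 eIF2 kinases and partners, 0 of 5 transcription factors, 0 of 7 enzymes, 0 of 8 transporters and 0 of 7 mTORC1 sensing genes.

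Among the lists of other cell types, only plasma cell markers held called genes by the CD44 label. Plasma cell markers rose in 2 of 6 tested genes (Mzb1 2.58 ± 0.48 and Jchain 2.32 ± 0.46), with sums of 403 to 3138 CPM in CD44- and 3858 to 8093 CPM in CD44+ libraries. Tnfrsf17 was at 0 throughout the CD44- group. Cell cycle genes were called in 0 of 19, with sums of 197 to 812 CPM in CD44- and 500 to 939 CPM in CD44+ libraries. B cell markers were called in 0 of 10, with sums of 276 to 1461 and 673 to 2267 CPM. Introns took 9.40% to 27.0% of gene reads in CD44- and 20.6% to 29.0% in CD44+ libraries. The part of these differences in the level of Nars and the other synthetases was not tested.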

How the data were processed

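RNA sequencing of 26 libraries gave 1 table per library, in which the authors deposited read counts per gene for 25814 genes (exon, intron, total gene and unique exon reads, per the file headers). The genome build is GRCm38, per the submitters' processing notes. The sources used here do not give the aligner, the counting program or any use of strand. The tests used total exon reads. In 3759 genes the deposited exon length is 0.

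Groups came from the sample labels. Each pair of groups was fitted alone with edgeR 4.0.16 in R 4.3.3: filterByExpr, TMM scaling, robust quasi-likelihood test, two-sided, no covariate, Benjamini-Hochberg adjusted p under 0.05. CPM used the TMM-scaled library size. CPM per kilobase used the deposited exon length. The SE is the size of the log2 fold change over the square root of F. The code was tested on simulated data. Inside each group, every pair of libraries differed with a chi-square of at least 11.9 per degree of freedom, so none counted as a duplicate. Promoter windows are from RefSeq. A further promoter match and a check of the CD44 sorts are not reported here. Alternatives used DESeq2 1.42.0, limma 3.58.1, other scaling, filters, reads and samples. Tables were made with pandas 2.3.3 and scipy 1.17.1 in Python 3.11.15, and figures with matplotlib 3.10.9.

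Genes and lists were chosen with earlier results of these data known. Full levels are given for the 11 genes that are not synthetases and for called synthetases, at most 8 by size of change, and up to 3 called genes from each other list. Eprs, Lars, Iars, Yars, Mars, Cars, Kars, Dars and Eif2ak4 were named after their values were seen. Castor1 and Castor2 had no entry under those names. The labels do not say whether replicate numbers pair the libraries.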

Additional observations from a re-analysis of the deposited data

Results flagged for a closer look

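A library was set aside for a closer look where, in a group of 6 or 7, its gap to the nearest other library took up most of the group's range (Dixon's 95% critical value). This was tested in 123 groups of values, 1 per gene and group, and 18 stood out. For independent values with a normal spread, chance alone gives about 1 in 20. These genes share their libraries and CPM was used without a log, so that rate need not hold here. Each of the 18 was the highest value of its group.

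In the CD4+ groups, conventional replicate 6 stood out for Farsa (52.2 CPM, next 43.1) and Psat1 (143 CPM, next 114). Conventional replicate 2 stood out for Chac1 (0.58 CPM, next 0.21), elemental replicate 1 for Eprs (13.3 CPM, next 8.36) and elemental replicate 4 for Ddit3 (23.5 CPM, next 15.2).

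In the CD44- group, replicate 2 stood out for 5 genes: Eprs (81.8 CPM, next 25.9), Farsa (42.9, next 7.49), Hars (92.0, next 38.0), Kars (207, next 82.9) and Trib3 (4.51, next 0.76). Replicate 5 stood out for Gars (90.02 CPM, next 32.7) and Mars (57.0 CPM, next 14.1).

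In the CD44+ group, replicate 1 stood out for Wars (10.4 CPM, next 4.07) and Asns (29.96 CPM, next 11.3), replicate 2 for Cars (10.7 CPM, next 2.37), replicate 5 for Iars (42.6 CPM, next 12.6), replicate 7 for Ddit3 (66.9 CPM, next 17.98) and replicate 8 for Atf4 (21.2 CPM, next 11.03).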

How the results depend on the processing

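The diet comparison called 2081 genes. It called 4095 with limma-voom and quality weights, 2 with all 4 groups in 1 fit, and 1299 to 3865 without 1 library (the lowest when conventional replicate 4 was left out, the highest when conventional replicate 6 was, and 1316 when elemental replicate 4 was). With total exon reads as library size the split was 898 higher and 1097 lower, against 1156 and 925. Of the 31 genes, 2 were called, and 5 with DESeq2, 11 with limma-voom, 4 with total exon reads as library size, 1 with no filter, 1 with unique exon reads, 0 with all 4 groups, 4 with the replicate block, and 1 to 9 without 1 library.

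The CD44 comparison called 64 genes, and 815 with DESeq2, 101 with total gene reads, 1748 with all 4 groups in 1 fit, 37 with the replicate block, and 36 to 87 without 1 library (36 without CD44+ replicate 5 or 7, 37 without CD44+ replicate 6, 41 without CD44- replicate 4). Of the 31 genes, 1 was called, and 7 with DESeq2, 2 with total gene reads, 8 with all 4 groups, 0 with the block, and 1 without any 1 library.

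The labels do not say whether replicate numbers pair samples. Both CD44 groups carry the numbers 1, 2, 4, 5, 6, 7 and 8. Same-numbered libraries had correlations of deviations from -0.142 to 0.271 by diet and from -0.042 to 0.115 by CD44, and correlated best with their own number in 2 of 6 and 1 of 7 cases. With the replicate block Gars lost its diet call (-0.26, adjusted p = 0.0843), Nars its CD44 call (-1.91, adjusted p = 0.0852), and Eprs, Lars and Psat1 gained one by diet.

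Of 630 single-gene diet values under the alternatives, 559 kept direction and side of the threshold, 28 gained a call, 15 lost one and 28 changed sign. Of 621 CD44 values these were 583, 12, 1 and 25. The sign changes were all in genes without a call. By diet, Asns was 0.0016 with DESeq2, 0.0433 with limma-voom, 0.0028 with DESeq2's size factors and 0.0032 with the replicate block. Farsa was -0.0801 with total exon reads as library size and -0.0079 with total gene reads, and Sars -0.0428 with the former. By CD44, Ddit3 was 0.0801 and Vars -0.0188 with all 4 groups, Eprs -0.0591 with total exon reads as library size and -0.57 with total gene reads, Iars 0.195 and Vars -0.0339 with total gene reads, and Phgdh 0.38 with the replicate block. Without 1 library, diet values ran from -0.14 to 0.0156 for Cars, -0.0338 to 0.0828 for Farsa, -0.0855 to 0.0317 for Mars, -0.09 to 0.0397 for Nars, -0.17 to 0.0429 for Sesn2, -0.0898 to 0.11 for Asns and -0.0743 to 0.0145 for Shmt2, and CD44 values from -0.24 to 1.18 for Eprs, -0.74 to 0.13 for Hars, -2.12 to 0.0615 for Iars, -0.23 to 0.61 for Vars and -1.27 to 0.19 for Ddit3.

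The cause of these changes was not tested. Chac1, Trib3, Sesn2 and Asns did not pass the read filter in the CD44 libraries, and Chac1 did not in the CD4+ ones.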
